A study of Mus musculus with 4 samples.

Results

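The genes described here encode the acetylcholine receptor of the neuromuscular junction, the MuSK pathway that clusters it and the enzyme that clears its transmitter. They are Chrna1, Chrnb1, Chrnd, Chrne, Chrng, Lrp4, Musk, Dok7, Rapsn and Ache, taken by symbol from a table of 51826 genes. All 10 were found in it, and 9 of them were among the 16120 genes with enough reads to be tested. Chrng was the gene left out by the filter on low counts.

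The samples were quadriceps muscles of 2 WT and 2 Mef2dα2 Eko male mice, sedentary and about 20 weeks old, on a C57BL6/J background, with 1 polyA-selected RNA library per mouse. Mef2d encodes a MEF2 transcription factor with a pair of alternative exons, α1 and α2, and the α2 form is made in muscle. The Eko mice were homozygous for a CRISPR-Cas9 deletion of the α2 exon in the germline, so every tissue carried it, and which founder line was sequenced is not given in the sources used here. The comparison asks whether transcripts of the synaptic apparatus differ in muscle that cannot make this isoform.

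At the neuromuscular junction the motor nerve ending releases acetylcholine onto a receptor packed at high density in the muscle membrane beneath it. Agrin from the nerve binds LRP4, which activates the receptor kinase MuSK with the help of its adaptor DOK7, and rapsyn then anchors the receptors into clusters. In adult fibres the nuclei beneath the synapse are the main source of these transcripts, whereas denervated or immature fibres transcribe receptor genes along their length and use the fetal γ subunit in place of the adult ε subunit. The libraries were made from whole muscle, so fewer synaptic nuclei and less RNA per nucleus cannot be told apart.

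Library totals ran from 72626757 to 85176059 counts. Mef2d counts were 19687 and 18393 for WT, 21695 and 17206 for Eko (log2 fold change 0.02, adjusted p = 0.960 in edgeR), and counts per gene do not separate its α exons. WT replicate 1 stood apart: a chi-square over genes, per degree of freedom, was 119 to 215 in its 3 pairs and 35.5 to 42.0 in the other 3 pairs. Fold changes of the junction genes are therefore also given without it, a fit in which 0 of the junction genes and 99 of all genes were called. Skeletal myofibre markers were abundant, with Myh1 at 3121 to 4967 CPM (counts scaled to the library total after TMM normalization). The 10 motor neuron and axon markers summed to 0.0659 and 0.0866 CPM in WT and 0.267 and 0.182 CPM in Eko mice, both Eko above. None of them had more than 10 counts in any library, and 5 (Chat, Slc18a3, Isl1, Mnx1 and Snap25) had 0 counts in all 4 libraries. No difference between genotypes can be read from sums this low. The part of nerve RNA in the values below was not tested.

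The 3 promoters below are shown because they bring together the adult ε subunit, the fetal γ subunit and the α1 subunit that both receptor forms share. Each is the 250 bases before the transcription start in RefSeq on GRCm38.p6, read 5′ to 3′ on the gene's strand. Capitals mark E-boxes (CANNTG, the letters bound by myogenic factors such as MyoD and myogenin) and the N-box (CCGGAA, bound by ETS factors such as GABP at synaptic genes). The Chrne window is chr11:70619195-70619444 on the minus strand, the Chrng window chr1:87205561-87205810 on the plus strand, and the Chrna1 window chr2:73580339-73580588 on the minus strand.
Chrne: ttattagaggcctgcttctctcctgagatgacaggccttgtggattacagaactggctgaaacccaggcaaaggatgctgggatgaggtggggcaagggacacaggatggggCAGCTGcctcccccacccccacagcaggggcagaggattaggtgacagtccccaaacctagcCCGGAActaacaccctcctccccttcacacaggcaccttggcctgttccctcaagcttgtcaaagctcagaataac
Chrng: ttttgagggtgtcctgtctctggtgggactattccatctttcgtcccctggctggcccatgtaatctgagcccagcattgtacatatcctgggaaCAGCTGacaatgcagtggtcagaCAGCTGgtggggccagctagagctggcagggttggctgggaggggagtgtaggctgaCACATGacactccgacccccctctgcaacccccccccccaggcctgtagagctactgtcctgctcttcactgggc
Chrna1: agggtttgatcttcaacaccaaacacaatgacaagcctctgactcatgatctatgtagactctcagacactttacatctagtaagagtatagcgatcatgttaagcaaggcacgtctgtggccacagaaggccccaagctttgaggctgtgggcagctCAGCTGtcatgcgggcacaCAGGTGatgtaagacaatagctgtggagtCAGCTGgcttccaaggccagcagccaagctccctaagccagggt
RefSeq gave a promoter for 7 of the 10 genes, all but Chrnd, Rapsn and Lrp4, and both strands were searched. They had 8 windows, since Dok7 had 2 starts. An E-box was present in 7 of the 8 windows, all but the second of Dok7, and in 66.2% of 32851 promoter windows of the same length. The more specific form CAGCTG, itself one of the E-boxes, was found in 4 of the 8 (Chrne, Chrng, Chrna1 and Musk) against 13.0% of all windows. The N-box was found in Chrne alone, with its first base 76 bases before the start, where 12.0% of all windows held one. None of the 8 windows matched the MEF2 motif, which 2.92% of all windows did, and this says only that those letters were not in these 250 bases. These matches are descriptions of sequence, not of binding.

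None of the 9 genes tested passed an adjusted p of 0.05 in edgeR's quasi-likelihood test, where 67 of 16120 genes did (0.416%, of which 0.105% higher and 0.310% lower in Eko). At an unadjusted p below 0.05, 1 of the 9 was found (Dok7), beside 11.6% of all genes tested. DESeq2, which called 1.97% of all genes, called 0 of the 9, with 1 at an unadjusted p below 0.05. limma-voom, which called 0.354%, called 0 of the 9, with 2 at an unadjusted p below 0.05. The differences were small. Log2 fold changes, as Eko minus WT, lay between -0.35 for Dok7 and 0.22 for Chrne, with a median of -0.04 beside -0.01 over all genes tested. In 3 of the 9 genes both Eko mice lay below both WT mice, in 1 both lay above, and in 5 the genotypes overlapped, where 23.0% and 20.8% of all genes tested lay wholly below and wholly above.

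**Figure D1:**
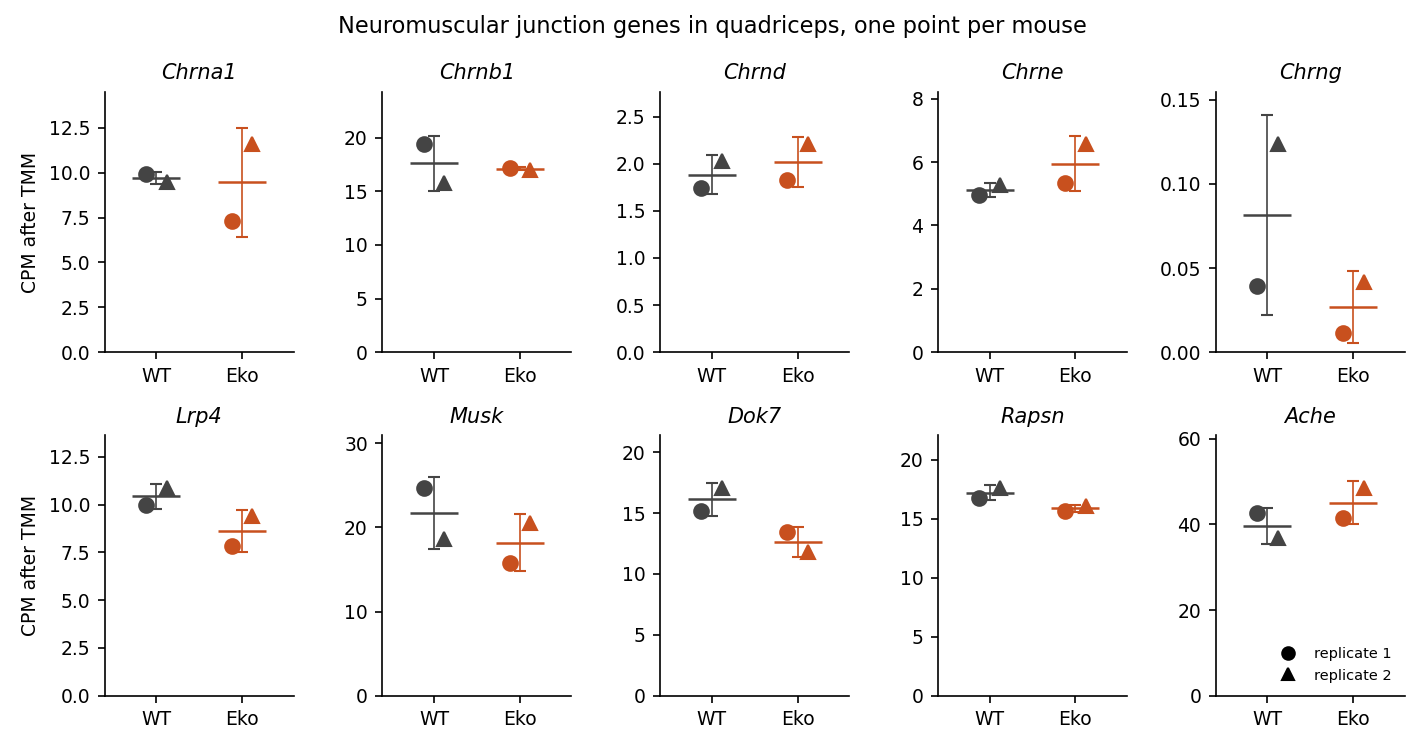
Normalized level of each of the 10 genes in each mouse, as CPM after TMM scaling on linear axes that start at 0. Circles are replicate 1 and triangles replicate 2, horizontal lines are genotype means and bars are the SD of 2 mice. Lrp4, Dok7 and Rapsn had both Eko mice below both WT mice, Chrne had both above, and Chrng lay near 0 throughout.

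The receptor subunits as a group lay on both sides of 0, and 0 were called. Their summed level was 36.1 and 32.7 CPM in WT and 31.7 and 37.4 CPM in Eko mice, so that the lowest and the highest mouse were both Eko. Of the 4 subunits tested, 2 had a log2 fold change above 0 and 2 below, with a median of 0.03.

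Chrne, the ε subunit that defines the adult receptor, lies on the minus strand at chr11:70614883-70619216 (GRCm38) and has the E-box and the N-box printed above. Its level was 4.95 and 5.27 CPM in WT muscle, and 5.34 and 6.57 CPM in Eko muscle. Both Eko mice were above both WT mice, and Eko replicate 1 exceeded WT replicate 2 only narrowly. The genotype means were 5.11 ± 0.221 CPM and 5.95 ± 0.874 CPM (SD, n = 2), with a log2 fold change of 0.22 (SE 0.14, 95% interval -0.11 to 0.55, adjusted p = 0.595 in edgeR). Leaving out each mouse in turn gave 0.06 to 0.38, and 0.18 without WT replicate 1.

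Chrna1, the α1 subunit that binds acetylcholine, had levels of 9.92 and 9.48 CPM in WT muscle. The Eko levels were 7.31 and 11.6 CPM, one below and one above the WT pair. The Eko mice thus differed from each other more than the WT mice did. The log2 fold change was -0.04 (95% interval -0.52 to 0.43, adjusted p = 0.956 in edgeR), and it was -0.01 without WT replicate 1, 0.27 without Eko replicate 1 and -0.41 without Eko replicate 2. The sign of this value rested on single mice.

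Chrnb1, the β1 subunit, was at 19.4 and 15.8 CPM in WT and at 17.2 and 17.0 CPM in Eko mice, which lay between the WT mice. Its log2 fold change of -0.04 (95% interval -0.30 to 0.22, adjusted p = 0.920) became 0.12 without WT replicate 1, the higher of the WT pair. Chrnd, the δ subunit, was the scarcest of the subunits of the adult receptor, with 132 and 164 counts in WT and 158 in each Eko mouse. That gave 1.74 and 2.03 CPM against 1.83 and 2.21 CPM, with overlapping genotypes and a log2 fold change of 0.10 (95% interval -0.37 to 0.57, adjusted p = 0.888). It was -0.01 without WT replicate 1 and -0.04 without Eko replicate 2.

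Chrng, the fetal γ subunit, lies 4586 bp downstream of Chrnd on chromosome 1 on the same strand. WT replicates 1 and 2 gave 3 and 10 counts of it, and the Eko replicates gave 1 and 3. In 3 of the 4 libraries it was therefore at or below the level that 3 counts give, 0.0348 to 0.0419 CPM. Summed by genotype the counts were 13 and 4, a ratio of Eko to WT of 0.306 with a counting interval of 0.0726 to 0.990 (exact, 95%, counting error only), and 10 of the 13 WT counts came from WT replicate 2. No difference between genotypes can be read from counts this low.

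Because the subunits assemble into one receptor, their levels were also set against each other within each mouse, as CPM per kb of exon. Chrne was at 1.296 and 1.44 times Chrna1 in WT and at 1.89 and 1.47 times in Eko mice, with both Eko mice above. The means were 1.37 ± 0.103 and 1.68 ± 0.300 (SD, n = 2; exact two-sided permutation p = 0.333, and 0.556 adjusted over 5 ratios). With 2 mice against 2, 0.333 is the smallest p this test can give. Chrnb1 was at 3.14 ± 0.357 times Chrna1 in WT and 3.31 ± 1.09 times in Eko mice, and Chrnd at 0.260 ± 0.0363 and 0.294 ± 0.0568 times, both with overlapping genotypes. Chrng was at 0.953% of Chrne in WT replicate 2, where it had its 10 counts, and at or below the floor in the other 3 mice.

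The genes of the MuSK pathway were all on the lower side in Eko mice without reaching the threshold. Log2 fold changes of Lrp4, Musk, Dok7 and Rapsn were below 0 in 4 of 4, with a median of -0.27. Of all genes tested, 8262 of 16120 were below 0. Over genes, the fold change fell with GC content (rank correlation -0.214). After a correction for GC content the values were -0.26 for Dok7, -0.23 for Lrp4, -0.24 for Musk and -0.04 for Rapsn. The summed level of the 4 genes was 66.6 and 64.3 CPM in WT and 52.8 and 57.8 CPM in Eko mice. The sums did not overlap. Of the single genes tested, 43.8% did not overlap either, a share for single genes and not for sums.

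Dok7, the adaptor that activates MuSK from inside the cell, lies on the plus strand at chr5:35056766-35087839 and had the smallest p of the 9 genes. WT muscle held it at 15.2 and 17.1 CPM, Eko muscle at 13.5 and 11.8 CPM. Both Eko mice were below both WT mice. The means of 16.1 ± 1.37 CPM and 12.6 ± 1.21 CPM (SD, n = 2) gave 0.783 of the WT level, a log2 fold change of -0.35 (SE 0.10, 95% interval -0.60 to -0.10) whose adjusted p was 0.289 in edgeR. The interval is for this gene alone and is not adjusted for the number of genes tested. The value was -0.44 without WT replicate 1. Without the filter on low counts the adjusted p of Dok7 was 0.0324 with the same log2 fold change, in a fit that called 799 of 24621 genes (3.25%). Over all the alternatives run its adjusted p lay between 0.0324 and 0.653.

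Lrp4, the muscle receptor for agrin, was at 9.98 and 10.9 CPM in WT and at 7.85 and 9.41 CPM in Eko mice, again without overlap. Its log2 fold change was -0.28 (SE 0.12, 95% interval -0.56 to 0.01, adjusted p = 0.446). It was -0.34 without WT replicate 1, and it ranged from -0.14 without Eko replicate 1 to -0.41 without Eko replicate 2. Rapsn, which encodes the scaffold rapsyn, was the steadiest of the pathway, at 16.8 and 17.6 CPM in WT and 15.7 and 16.1 CPM in Eko mice. The difference of -0.12 on the log2 scale (95% interval -0.30 to 0.07, adjusted p = 0.612) was -0.15 without WT replicate 1 and -0.04 after a correction for GC content. Rapsn and Lrp4 share a strand of chromosome 2 and lie 411781 bp apart.

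Musk, the receptor kinase at the centre of the pathway, had a fold change that moved with single mice of both genotypes. WT levels were 24.7 and 18.7 CPM and Eko levels 15.8 and 20.6 CPM, so that WT replicate 2 lay between the Eko mice. A log2 fold change of -0.26 (95% interval -0.65 to 0.14, adjusted p = 0.603 in edgeR) became -0.04 without WT replicate 1 and -0.06 without Eko replicate 1, and -0.43 without WT replicate 2 and -0.46 without Eko replicate 2.

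**Figure D2:**
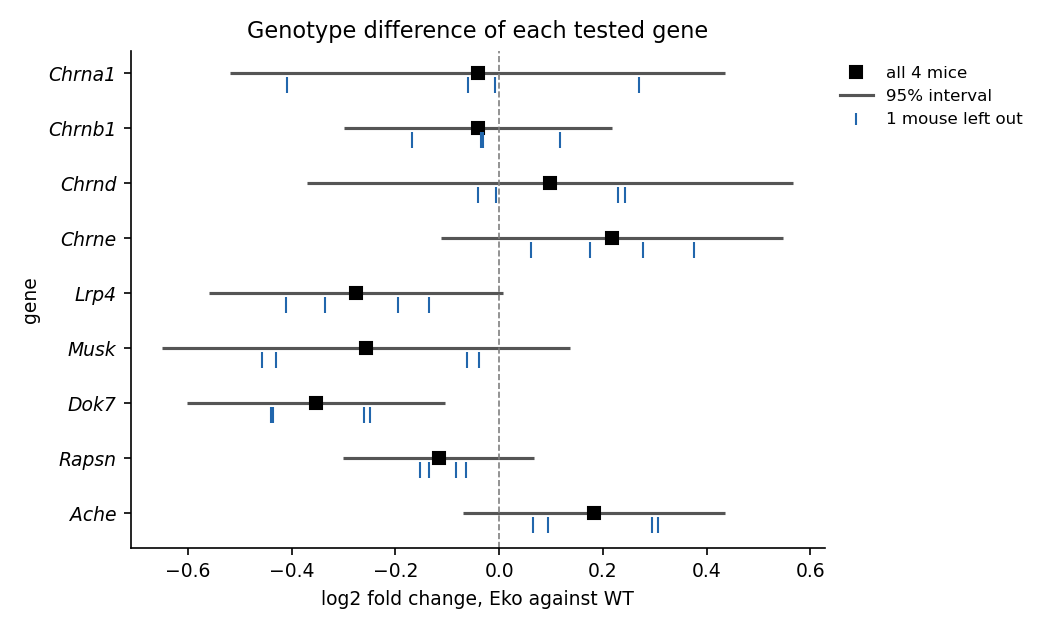
Log2 fold change (Eko minus WT) of the 9 genes tested, with the 95% interval from edgeR's quasi-likelihood fit and the values obtained when each mouse is left out. The interval of Dok7 lay below 0 before adjustment over all genes, those of the other 8 genes included 0, and Chrna1, Chrnb1 and Chrnd changed sign when single mice were left out.

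Ache, which encodes the acetylcholinesterase that ends each signal, had the most counts of the genes, 2971 to 3577 per mouse. It was at 42.6 and 36.7 CPM in WT and 41.5 and 48.6 CPM in Eko mice. WT replicate 1 lay between the Eko mice, and the log2 fold change of 0.18 (95% interval -0.07 to 0.44, adjusted p = 0.563) was 0.29 without it. It ranged from 0.06 without Eko replicate 2 and 0.09 without WT replicate 2 to 0.31 without Eko replicate 1. Colq, the collagen tail that anchors the enzyme in the synaptic basal lamina, had a log2 fold change of 0.02. Per kb of exon Colq was at 0.224 and 0.255 times Ache in WT and at 0.202 and 0.222 times in Eko mice, with Eko below (0.239 ± 0.0219 and 0.212 ± 0.0142, SD, n = 2; exact permutation p = 0.333, adjusted 0.556).

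Per kb of exon, Rapsn and Ache were the most abundant of the transcripts, with means over the 4 mice of 9.18 and 9.16 CPM per kb. They could not be ordered, since Rapsn was above Ache in 2 of 4 mice. Chrnb1 followed at 6.86 and Musk at 5.28 CPM per kb, with ranges over mice that overlapped although Chrnb1 was the higher in 4 of 4. Dok7 at 3.36 and Chrne at 3.27 CPM per kb could not be ordered either. Below them came Chrna1 at 2.18, Lrp4 at 0.908 and Chrnd at 0.594 CPM per kb, each apart from its neighbours in 4 of 4 mice. Chrng was last at 0.0130 CPM per kb. The subunits of the adult receptor were thus ordered Chrnb1, Chrne, Chrna1 and Chrnd per kb of exon. Length was the union of all annotated exons, and with the longest transcript in its place Ache and Rapsn traded places.

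**Figure D3:**
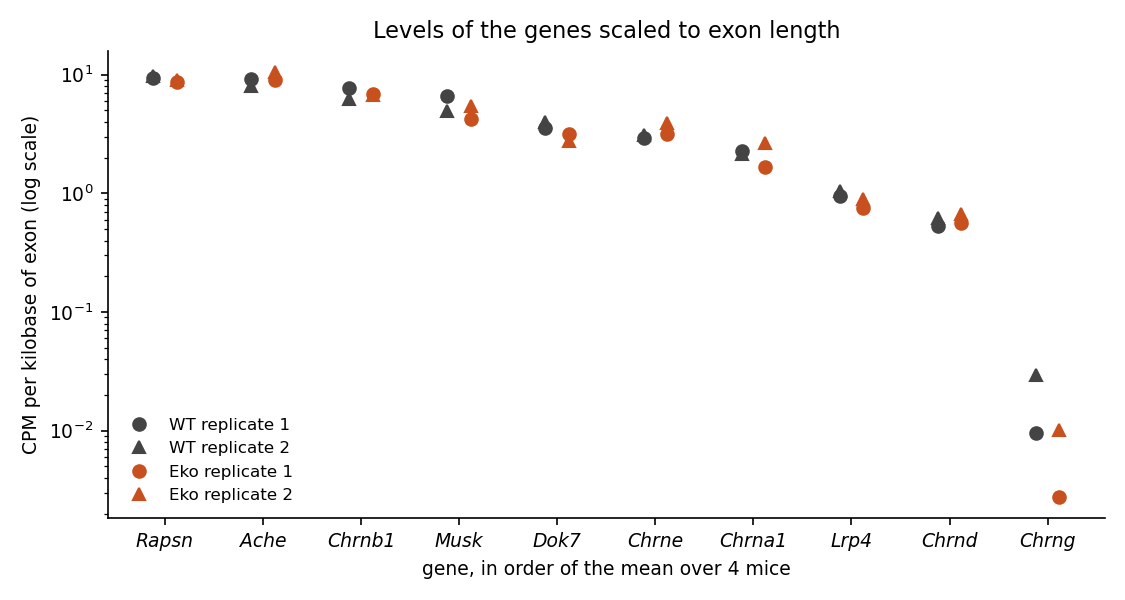
Level of the 10 genes as CPM per kb of exon on a log axis, in order of the mean over 4 mice, with 1 point per mouse coloured by genotype. The means run from 9.18 for Rapsn to 0.0130 for Chrng, and the points of each gene above Chrng lie close together beside that range.

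The other protein-coding genes lie on GRCm38 at chr2:73563215-73580338 (Chrna1, minus strand), chr11:69784036-69795943 (Chrnb1, minus), chr1:87190607-87200070 (Chrnd, plus), chr1:87204657-87212694 (Chrng, plus), chr2:91457511-91513779 (Lrp4, plus), chr4:58285960-58374303 (Musk, plus), chr2:91035620-91045729 (Rapsn, plus) and chr5:137287519-137294466 (Ache, plus). Reads from overlapping genes can enter these values, since the strand setting of the counting is not given in the sources used here. Ache overlaps Gm42456 and Mir8116, which had 0 counts in all libraries. Rapsn shares 4 exon bases with Gm13778 (10 to 17 counts) on the other strand, and Chrne shares no exon base with 4930544D05Rik (18 to 39 counts).

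The genes tested whose pattern over the 4 mice was nearest to that of Dok7 were Zfp335os, Chsy1 and Hoxb7. Their root mean square distances from Dok7 were 0.00992, 0.0121 and 0.0131 on the centred log2 CPM scale, out of 16119 genes compared. With 4 mice, this describes a shape and nothing more.

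Other genes of the junction were read from 8 further lists, and none of their members passed the threshold in edgeR's quasi-likelihood test. The neural ligands and their receptors, which bring the nerve's signal to the fibre, had 4 of 5 genes tested, with 0 at an unadjusted p below 0.05 and a median log2 fold change of 0.06. Agrn, whose neural form is the ligand of LRP4, had 664 and 582 counts in WT and 802 and 509 in Eko mice. Nrg1 had 0 counts. The ErbB receptors Erbb3 and Erbb4 had log2 fold changes of 0.08 and 0.11.

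Among 10 genes for esterase anchors and the synaptic basal lamina, 2 had an unadjusted p below 0.05, in opposite directions. Lamb2, the laminin β2 chain concentrated in the synaptic cleft, had 6270 and 6177 counts in WT and 9314 and 7173 in Eko mice. It was higher in both Eko mice, with a log2 fold change of 0.39 (adjusted p = 0.130). DESeq2, the likelihood ratio test, the fit without the filter on low counts and the replicate block called it, and limma-voom did not. Hspg2, the perlecan core protein that binds the tailed esterase, was at -0.22 (adjusted p = 0.301), with both Eko mice below WT.

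The postsynaptic membrane and cytoskeleton list had 3 of 12 genes at an unadjusted p below 0.05 and a median of 0.03. Actn2, which encodes an α-actinin of the Z-disc, was at 545 and 431 CPM in WT and 345 and 335 CPM in Eko mice (log2 fold change -0.52, adjusted p = 0.170). It too was called by DESeq2, the likelihood ratio test, the fit without the filter on low counts and the replicate block, and not by limma-voom. Scn4a, the muscle sodium channel enriched in the depths of the synaptic folds, was at 544 and 571 CPM in WT and 627 and 689 CPM in Eko mice (0.24, adjusted p = 0.326). The adaptors of MuSK signalling had 0 of 16 at that level, with a median of -0.02. Fyn, a Src family kinase, was at -0.25 (adjusted p = 0.497) and Gfpt1, an enzyme of hexosamine synthesis, at 0.09.

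Of 13 regulators of synaptic transcription, 3 had an unadjusted p below 0.05, with a median of 0.05. Myf6, the myogenic factor MRF4, was at 61.4 and 63.9 CPM in WT and 70.7 and 80.2 CPM in Eko mice (0.27, adjusted p = 0.297). Gabpa, the ETS factor that binds the N-box, was at 28.5 and 28.1 CPM in WT and 31.8 and 31.7 CPM in Eko mice (0.17, adjusted p = 0.411). Myog, which activates receptor genes after denervation, differed within WT, with 164 and 419 counts against 202 and 296 in Eko mice. The list of other subsynaptic nucleus genes had 0 of 10 at an unadjusted p below 0.05. Its lowest p values were those of Pdzrn4 (-0.77, adjusted p = 0.477) and Phldb2 (0.21).

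Denervation-responsive genes, a list that also holds Chrna1, Chrng, Chrnd and Musk, had 4 of 15 tested at an unadjusted p below 0.05 and a median of 0.10. Fgfbp1, a carrier of fibroblast growth factors, had 207 and 280 counts in WT and 480 and 378 in Eko mice, with both Eko mice above. Its log2 fold change was 0.81 (adjusted p = 0.1251). Cdkn1a, the cell cycle inhibitor p21, was at 6.25 and 5.64 CPM in WT and 9.60 and 8.32 CPM in Eko mice (0.59, adjusted p = 0.150). DESeq2 called both, together with the ubiquitin ligase Fbxo32 (0.37, adjusted p = 0.162), and limma-voom called none of them. Fgfbp1 was also called without WT replicate 2 and Fbxo32 without Eko replicate 1. The fetal myosins of the list, Myh3 and Myh8, were at -0.09 and -0.36, and Chrng was at the floor in 3 of 4 mice as above.

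Of 11 other acetylcholine receptor subunits, those of neuronal receptors, 4 were tested. Chrna2 had 119 and 218 counts in WT and 81 and 62 in Eko mice, both Eko mice below (-1.24, adjusted p = 0.212). It was called lower by DESeq2 and without WT replicate 1. Chrnb2 had 18 to 29 counts per mouse.

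**Figure D4:**
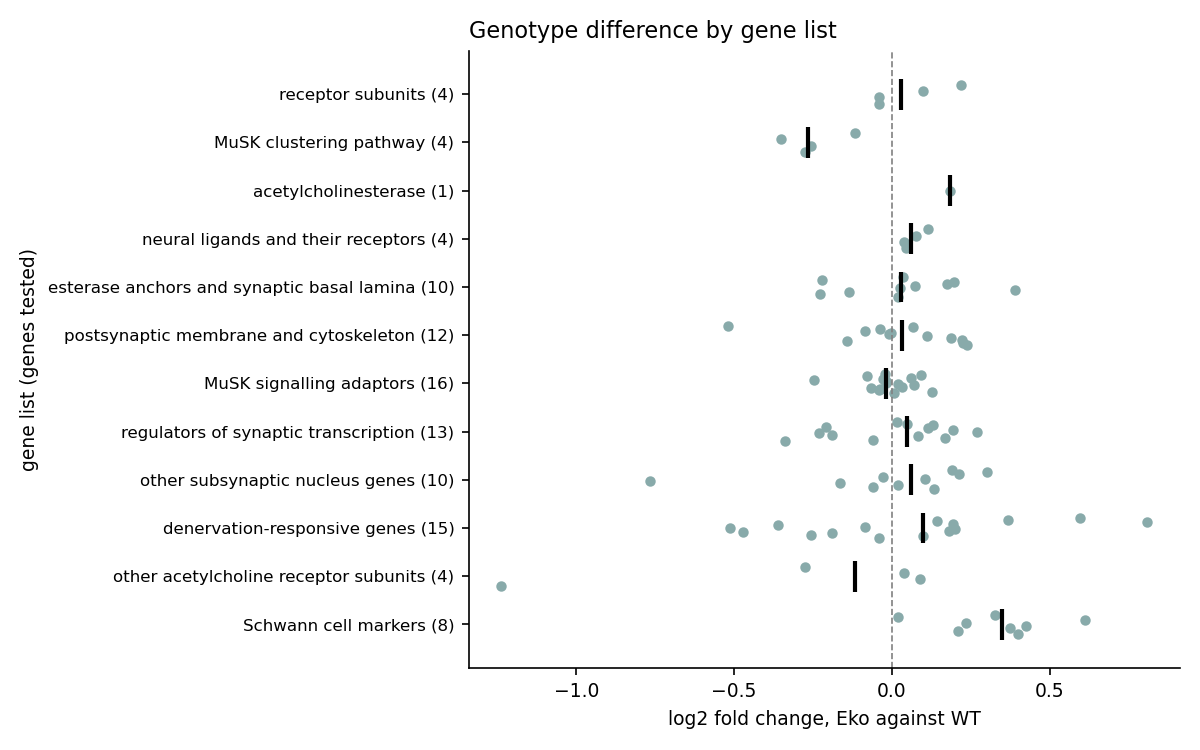
Log2 fold change (Eko minus WT) of each gene tested in the lists of neuromuscular junction genes and of Schwann cell markers, 1 point per gene with the number tested in parentheses and a bar at the median. Medians of the junction lists run from -0.27 for the MuSK pathway to 0.10 for the denervation-responsive genes (Ache alone at 0.18). The 4 genes of the MuSK pathway lie below 0. The 4 neural ligand and receptor genes tested and the 8 Schwann cell markers lie above 0.

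Markers of other cells in the muscle did not move evenly. The 8 Schwann cell markers are genes of the glia that wrap motor axons and cap the synapse. Their log2 fold changes were above 0 in 8 of 8, where 7858 of the 16120 genes tested were. The median was 0.35, with 0 called in edgeR's quasi-likelihood test. In 4 of the 8 both Eko mice lay above both WT mice, as in 20.8% of all genes tested, and in 4 the genotypes overlapped. The summed level of the 8 markers was 42.3 and 44.8 CPM in WT and 47.0 and 56.9 CPM in Eko mice. Mbp, which encodes myelin basic protein, was at 0.37 (adjusted p = 0.294). The 4 adipocyte markers summed to 155 and 93.5 CPM in WT and 86.1 and 69.4 CPM in Eko mice, highest in WT replicate 1, with a median of -1.14. Cfd and Adipoq, at -2.18 and -1.08, had the smallest unadjusted p of that list in edgeR, which is not its order by fold change. The 4 macrophage markers had a median of -0.56, with Csf1r at -0.64 and Cd68 at -0.77. Of the 5 fibroblast markers 4 lay below 0 and 1 above, with a median of -0.17 (Col3a1 -0.40, Pdgfra -0.26). Of 10 myofibre markers 5 lay above 0 and 5 below, with a median of -0.05 (Myh2 -0.51, Myh1 -0.44). Of 5 satellite cell markers 4 lay above 0 and 1 below, with a median of 0.18 (Myf5 0.56, Calcr 0.66). Medians were -0.03 for 4 endothelial markers (Kdr -0.06, Tek 0.06), 0.08 for 3 blood cell markers (Hbb-bs 0.08, Alas2 0.18) and 0.10 for 4 tendon markers (Thbs4 -0.27, Fmod 0.17). Without WT replicate 1, 0 Schwann cell and 0 macrophage markers had an unadjusted p below 0.05, against 3 and 2 with it, and Cfd was called lower. For the other subsynaptic nucleus genes that number was 3 without it, against 0. With all 4 mice the quasi-likelihood test called 0 genes of these marker lists, while DESeq2 called Myh1, Myh2 and Col3a1 and other alternatives called further ones. Of 10 motor neuron and axon markers none had enough reads to be tested. Their part in the values of the junction genes was not tested.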

How the data were processed

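Quadriceps RNA of 2 WT and 2 Mef2dα2 Eko mice was sequenced. The authors aligned paired reads with STAR 2.6.1a (per the submitters' processing notes) and counted them with RSEM on an Ensembl annotation of GRCm38. The deposited expected counts per gene were whole numbers already (0 values were not whole), and no column of another sample was present. The authors tested them with DESeq2.

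Genotypes came from the sample labels. The study's text calls the mice littermates, without saying which replicates share a litter, and p-values measure the spread between these mice. Counts were fitted over all genes in edgeR 4.0.16 (R 4.3.3; TMM scaling, filterByExpr, quasi-likelihood test, Benjamini-Hochberg threshold 0.05), which kept 16120 of 24621 genes with any count. Alternatives were DESeq2 1.42.0, limma-voom (limma 3.58.1), a likelihood ratio test, other scalings and filters, a GC correction, a replicate block and leaving out each mouse. Within-mouse ratios were compared by exact permutation tests. Intervals and the floor of 3 counts cover counting error only where so named. Positions and exon lengths came from GENCODE M21 on GRCm38, and promoters from RefSeq on GRCm38.p6.

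The genes and the lists were chosen with earlier results of these data known. All 10 genes are named, and from each further list the 2 genes with the smallest unadjusted p, except 1 gene that is not reported here. Agrn, Nrg1, Colq, Myog, Fbxo32, Myh3, Myh8 and the motor neuron genes at 0 counts were added after their values were seen.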

Additional observations from a re-analysis of the deposited data

How the results depend on the processing

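The number of genes called among all tested depended strongly on the tool. Beside 67 (17 higher and 50 lower in Eko), DESeq2 called 318 (132 and 186), DESeq2 without independent filtering 309 (128 and 181), the likelihood ratio test 312 (114 and 198), a fit with no filter on low counts 799 (303 and 496), a filter of 1 CPM in 2 libraries 23 (5 and 18) and the GC correction 44 (11 and 33). Leaving out 1 mouse, where the lone mouse of its genotype is assumed to vary like the other pair, gave 99 to 299 (25 to 127 higher and 74 to 172 lower): 99 without WT replicate 1, 299 without WT replicate 2, 204 without Eko replicate 1 and 126 without Eko replicate 2. Genotypes share replicate numbers, and over genes the deviations of same-numbered mice had r = 0.0909 and a rank correlation of 0.155. No source says that a number marks a litter, so the numbers were not taken as pairs. With the replicate block 186 genes were called (50 and 136) and 0 of the 9 junction genes.

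Of the junction genes, Dok7 was the 1 called (1 lower) with no filter on low counts, at -0.35 and an adjusted p of 0.0324, and 0 were called under each of the other alternatives. Of 135 refitted log2 fold changes, 130 kept their direction and their side of the threshold. Most of these refits used the same 4 mice, so the count says little about the spread between mice. Every turn of direction was in a fit without 1 mouse. Direction turned for Chrna1 without Eko replicate 1 (0.27), for Chrnb1 without WT replicate 1 (0.12), and for Chrnd without WT replicate 1 (-0.0065) and without Eko replicate 2 (-0.040). Fold changes ranged over the 4 fits without 1 mouse from -0.41 to 0.27 for Chrna1, -0.17 to 0.12 for Chrnb1, -0.040 to 0.24 for Chrnd, -0.46 to -0.04 for Musk, -0.41 to -0.14 for Lrp4, 0.06 to 0.31 for Ache, 0.06 to 0.38 for Chrne, -0.15 to -0.06 for Rapsn and -0.44 to -0.25 for Dok7. With the longest transcript as length, the Chrnb1 to Chrna1 ratio in WT was 3.68. The causes of these shifts were not tested. Depth limits Chrng, which cannot be compared at 1 to 10 counts, and 2 mice per genotype limit the other genes.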
